A study of Mus musculus with 3 samples.

Results

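Reprogramming mouse fibroblasts transfected with siRNAs against Ncor1 (siNcor1) were compared with cells given a non-targeting siRNA (nt) and with mock-transfected cells (Mock). The members were taken from the column names of the deposited count table. They were 3 siNcor1, 3 nt and 5 Mock libraries, 11 of the 129 libraries in the table. All came from wild-type BL6 embryonic fibroblasts at passage 2. Every group carried the same doxycycline-inducible lentivirus with Oct4, Sox2, Klf4 and c-Myc, and the rtTA activator, at a multiplicity of infection of 1. siRNAs were given at 40 nM, and cells were replated 24 h later into 2 µg/mL doxycycline, 3 µM chiron, 0.25 µM Alk5 inhibitor, 50 µg/mL ascorbic acid and LIF. RNA was taken on day 6 and counted by CEL-Seq2, a method that reads the 3′ ends of transcripts and counts molecules by their barcodes. The 3 replicates are 3 sequenced pools. Nothing in the labels says that they were separate cell preparations, so p-values measure the spread between these libraries. The cells were a mixture of those that respond to the factors and those that do not, and in bulk RNA fewer cells of a type and less RNA per cell cannot be told apart.

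NCOR1 is a nuclear receptor corepressor. It is a scaffold that holds the histone deacetylase HDAC3 together with TBL1X, TBL1XR1 and GPS2, and it silences targets of nuclear receptors that have no ligand.

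The siRNAs define the perturbation, so 2 of the Ncor1 siRNAs are shown, as listed by the study, which pooled 3 per gene. The antisense strands follow 5′ to 3′ with the seed, bases 2 to 8, in capitals, and each is followed by its target site with the match to that seed in capitals.
Ncor1 siRNA 1 antisense: aUUUUCUGcuugauuugcctt
Ncor1 siRNA 1 target: ggcaaatcaagCAGAAAAt
Ncor1 siRNA 2 antisense: cAACUUACgaaaaauuucctg
Ncor1 siRNA 2 target: ggaaatttttcGTAAGTTg
Ncor1 lies on the minus strand of GRCm38 chromosome 11, from 62316426 to 62458541. The first site is coding sequence across a splice junction, with 17 bases in exon 38 (62330796 to 62330812) and 2 bases in exon 39 (62330138 to 62330139) of an annotated Ncor1 transcript with 46 exons. The second site lies within exon 42 (62325518 to 62325536), also coding. In the GENCODE vM21 annotation the first site was found in 7 and the second in 8 of 25 Ncor1 transcripts, and neither in a transcript of another gene.

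Ncor1 itself had few counts, and a fall in it was not shown. The siNcor1 libraries held 4, 3 and 5 counts of Ncor1, and the nt libraries held 2, 10 and 10. The nt library of replicate 1 was below every siNcor1 library, so the groups overlapped. Summed over libraries, Ncor1 was at 0.625 times its share in nt (12 against 22 counts, exact 95% interval 0.282 to 1.32, counting error only) and at 0.641 times its share in Mock (interval 0.284 to 1.39). The fitted log2 fold change against nt was -0.51 with a standard error of 0.56 (edgeR quasi-likelihood test, Benjamini-Hochberg adjusted p = 0.757). The counting intervals reached from a residual level of 0.282 to one above that of nt, so a moderate fall could not be told from none at this depth.

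Total counts were 67275, 58123 and 134846 in siNcor1, 75100, 80136 and 143156 in nt, and 38925 to 83089 in Mock. Levels below, in CPM, are counts of a gene scaled to the TMM-adjusted total of tested genes in its library. Tests used a model with a term for condition and a term for replicate over 127 libraries, on 3013 genes. Fibroblast markers were present in all 11 libraries, and the 10 endothelial and 10 skeletal muscle markers had no gene that passed the filter on low counts. Of 12 macrophage and leukocyte markers, 1 was tested and 7 had no count in any of the 11 libraries.

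Against nt, 103 genes were higher in siNcor1 (3.42% of genes tested) and 31 were lower (1.03%). The higher genes included 16 cytoplasmic ribosomal protein genes and 35 pseudogene copies of such genes. The lower genes included the splicing regulator Mbnl2, the adhesion protein Lpp and the secreted phosphoprotein Spp1. Of the 103 higher genes, 69 did not overlap between the groups, as did 25 of the 31 lower ones, and 416 of all genes tested (13.8%) did not overlap. The count rests on the model: 30 genes were called without the replicate block, 160 by DESeq2, and 0 by limma on the deposited log2 values, where 546 had an unadjusted p under 0.05. With the compared conditions alone, 113 were higher and 82 lower, and without the siNcor1 or the nt library of replicate 3 there were 59 and 66 calls.

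Mock gave fewer calls. In siNcor1, 12 genes were higher than in Mock (0.398%) and 12 were lower (0.398%) by edgeR, with 0 called without the replicate block, where 278 had an unadjusted p under 0.05, and 41 by DESeq2. The 103 genes higher than nt had a median log2 fold change of 0.92 against nt and 0.47 against Mock, and the 31 lower genes had medians of -1.11 and -0.44. Both comparisons use the same siNcor1 libraries, and the genes were chosen on the first, so these medians are a description. Against the mean of nt and Mock, 82 genes were higher (2.72%) and 16 were lower (0.531%). Against the mean of the 32 other siRNAs, 95 libraries in all, 290 were higher (9.62%) and 74 lower (2.46%).

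Genes called with 1 direction against nt, against Mock and against the other siRNAs numbered 14, of which 10 were higher and 4 lower. Lpp, a focal adhesion protein of fibroblasts and smooth muscle, read 163, 62.8 and 50.0 CPM in siNcor1, 283, 254 and 278 in nt, and 206, 206, 346, 273 and 373 in Mock. Every siNcor1 library was below every control library. The log2 fold change was -1.71 ± 0.39 (SE) against nt, adjusted p = 0.00161 by edgeR, and -1.80 ± 0.39 against Mock, adjusted p = 0.00417. Its siNcor1 mean was the lowest of 33 siRNAs, whose other means ran from 143 to 931 CPM. Lpp lies on the plus strand of chromosome 16 (24393507 to 24992578, GRCm38).

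Hsp90b1, the HSP90 chaperone of the endoplasmic reticulum, read 550, 544 and 540 CPM in siNcor1 and 866, 1050 and 1080 in nt. The 5 Mock libraries lay between 858 and 1140 CPM, so siNcor1 was below all controls. The log2 fold change against nt was -0.89 ± 0.21, edgeR adjusted p = 0.00244, and the siNcor1 mean was again the lowest of 33 siRNAs. Hsp90b1 lies on the minus strand of chromosome 10 (86690209 to 86705509). Spp1, osteopontin, an extracellular matrix protein of mesenchymal cells, read 449, 356 and 591 CPM in siNcor1 and 1580, 793 and 923 in nt. Mock lay between 657 and 1100 CPM, and no siNcor1 library reached that range. Its log2 fold change against nt was -1.15 ± 0.24, edgeR adjusted p = 0.000393, and the gene lies on the plus strand of chromosome 5 (104435118 to 104441050). Trp53inp1, a p53 target that promotes autophagy, read 102, 62.8 and 50.0 CPM in siNcor1 and 99.9, 269 and 253 in nt. Its groups overlapped through replicate 1, and the log2 fold change against nt was -1.68 ± 0.46 with an edgeR adjusted p of 0.0127.

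Among the 10 higher genes, Cox8a, a subunit of cytochrome c oxidase, read 1200, 942 and 1550 CPM in siNcor1 and 716, 703 and 727 in nt. Mock lay between 571 and 894 CPM, below every siNcor1 library. The log2 fold change against nt was 0.82 ± 0.18, edgeR adjusted p = 0.00129, and the siNcor1 mean was the highest of 33 siRNAs. The siRNA to Oct4, siPou5f1, averaged 969 CPM, and the log2 difference of 0.35 from it did not pass (edgeR adjusted p = 0.623). Cox8a lies on the minus strand of chromosome 19 (7215153 to 7217616). Hspe1, the mitochondrial co-chaperonin, read 775, 984 and 1370 CPM in siNcor1 and 766, 583 and 621 in nt, and its lowest siNcor1 library lay within the Mock range of 496 to 852. Psmb1, a subunit of the proteasome core, read 347, 188 and 601 CPM in siNcor1 and 167, 89.7 and 229 in nt, and the library of siNcor1 replicate 2 lay inside both control ranges. In siPou5f1 Hspe1 averaged 1010 CPM and Psmb1 325 CPM. The siNcor1 log2 differences from siPou5f1 were 0.06 and 0.30, and neither passed. The pseudogenes Gm13532 and Gm13622 were also among the higher genes, and both overlapped nt and Mock.

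**Figure D1:**
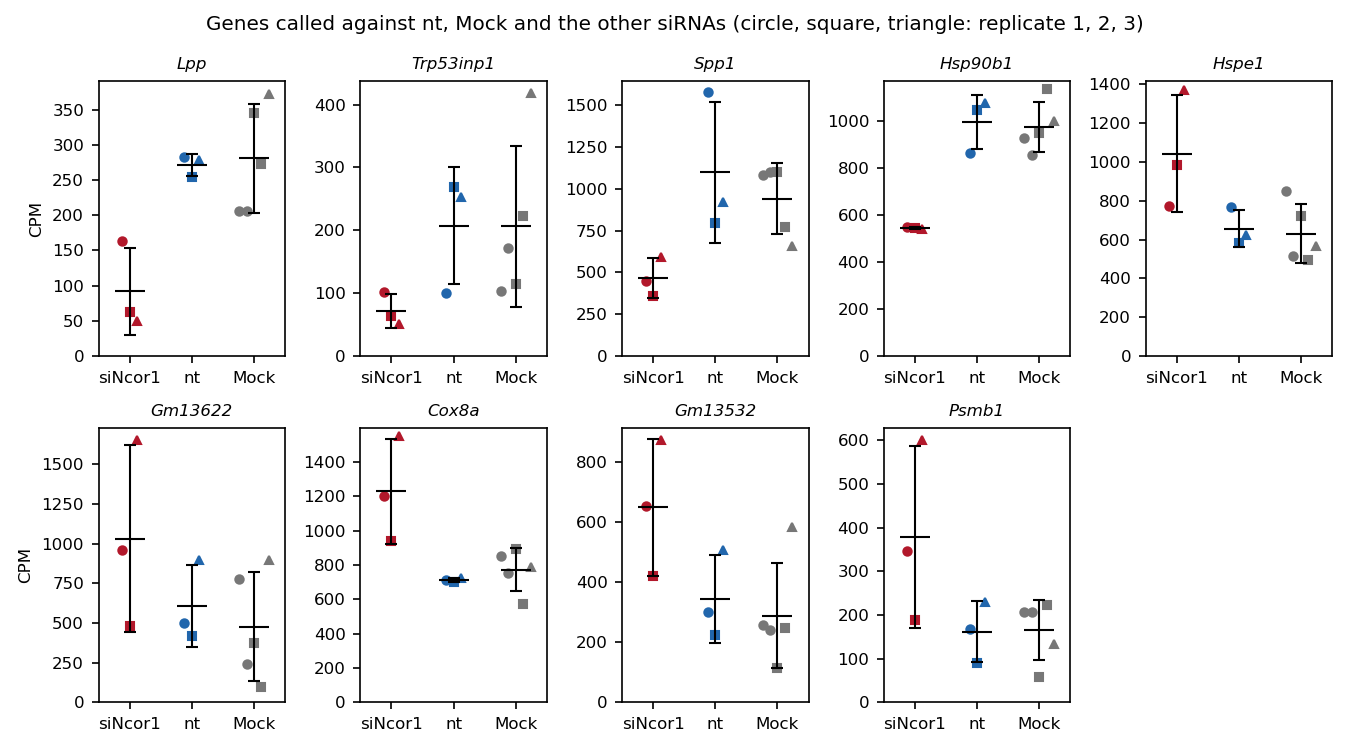
CPM of 9 of the genes called against nt, Mock and the other siRNAs, in each siNcor1 (n = 3), nt (n = 3) and Mock (n = 5) library; bars are the mean ± SD and each y axis starts at 0. Lpp, Spp1 and Hsp90b1 were lower in every siNcor1 library than in every control library, and Cox8a was higher.

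The widest falls against nt were in low-count genes. Mbnl2, a muscleblind splicing regulator, read 20.4, 20.9 and 60.1 CPM in siNcor1 and 266, 165 and 180 in nt. Mock lay between 68.7 and 155 CPM, above siNcor1 and below nt. The log2 fold change was -2.25 against nt, edgeR adjusted p = 0.00149, and -1.35 against Mock, adjusted p = 0.306. Igf1r, the receptor for IGF1, had 3 counts in siNcor1 and 23 in nt, a ratio of 0.150 (exact 95% interval 0.0287 to 0.495, counting error only). Mock had 8 counts, and the ratio of 0.380 to Mock had an interval of 0.0650 to 1.59. The Igf1r call (edgeR adjusted p = 0.0414) held in 4 of 15 alternative fits, and DESeq2 gave it no adjusted p. Bnip2, Mpp1, Fndc3b, Tmem30a, Zfp266, Pnn, Chordc1, Gm44510 and Idi1, an enzyme of isoprenoid synthesis, completed with Lpp the 12 widest falls among called genes with 1 sign in every replicate and a mean of at least 50 CPM in either group, with log2 fold changes from -1.29 for Chordc1 to -2.05 for Gm44510.

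The widest rises were likewise at low levels. The 12 widest by the same rule included the pseudogenes E030024N20Rik (2.67 on the log2 scale), Rps12-ps20 (1.74), Gm45660, Gm5406, Gm11966 and Rps12-ps22. They also included Gm4707 (1.83), with a 3′ end that matched other genes. The remaining ones were Zfp106 (2.58), Gng2, Rfc4, Mrpl42 and Lamtor4. Gng2, a G protein gamma subunit, read 163, 188 and 170 CPM in siNcor1 and 16.7, 74.8 and 57.2 in nt. Mock reached 74.6 CPM, so siNcor1 was above all controls, by 1.72 on the log2 scale against nt (edgeR adjusted p = 0.0404) and by 1.83 against Mock (adjusted p = 0.0779). The Gng2 call against nt held in 2 of 11 alternative fits. Rfc4, a subunit of the clamp loader of DNA replication, read 143, 314 and 240 CPM in siNcor1 and 16.7, 135 and 65.4 in nt, and its Mock range of 34.3 to 115 lay below siNcor1. Mrpl42, a mitochondrial ribosomal protein, read 387, 251 and 450 CPM in siNcor1 and 117, 89.7 and 147 in nt. Its Mock range of 248 to 309 CPM overlapped siNcor1. Lamtor4, of the Ragulator complex on lysosomes, and Zfp106 were also higher than nt, and their Mock ranges of 68.7 to 206 and 44.8 to 103 CPM overlapped siNcor1. Their calls held in 4 of 15 and 7 of 14 alternative fits, and that of Rfc4 held in 9 of 15.

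Of 74 cytoplasmic ribosomal protein genes tested, 16 were higher than nt (21.6%, beside 3.42% of all genes) and 0 were lower (beside 1.03%) by edgeR, where 33 had an unadjusted p under 0.05 upwards and 5 downwards. DESeq2 called 21 higher and 0 lower, and limma on the deposited values called 0 in either direction. The median log2 fold change of the 74 was 0.38 against nt and 0.32 against Mock, beside -0.04 and 0.00 over all genes. Against Mock 1 was called higher by edgeR (1.35%, beside 0.398% of all genes), 4 by DESeq2 and 0 by limma, where edgeR gave 20 an unadjusted p under 0.05. Against the other siRNAs 29 were higher (39.2%, beside 9.62%), with a median of 0.46. Against siPou5f1, the siRNA to Oct4, their median was 0.00, with 2 upwards and 9 downwards at an unadjusted p under 0.05. Rps29, of the small subunit, read 449, 293 and 801 CPM in siNcor1 and 167, 105 and 327 in nt. Each siNcor1 library was above the nt library of its replicate, and replicate 3 was high in both groups. Rps7 read 2830, 2240 and 4040 CPM in siNcor1 and 1650, 1240 and 1680 in nt, which edgeR put at 0.99 ± 0.16 on the log2 scale against nt (adjusted p = 2.87e-06); its Mock range of 1740 to 2930 overlapped siNcor1. Among the others called were Rplp2, Rpl36a, Rpl37, Rps27l, Rpl31, Rpl35, Rps3a1, Rps27a, Rpl7, Rpl26, Rpl5 and Rplp1, from 1.09 for Rplp2 to 0.49 for Rplp1 on the log2 scale.

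**Figure D2:**
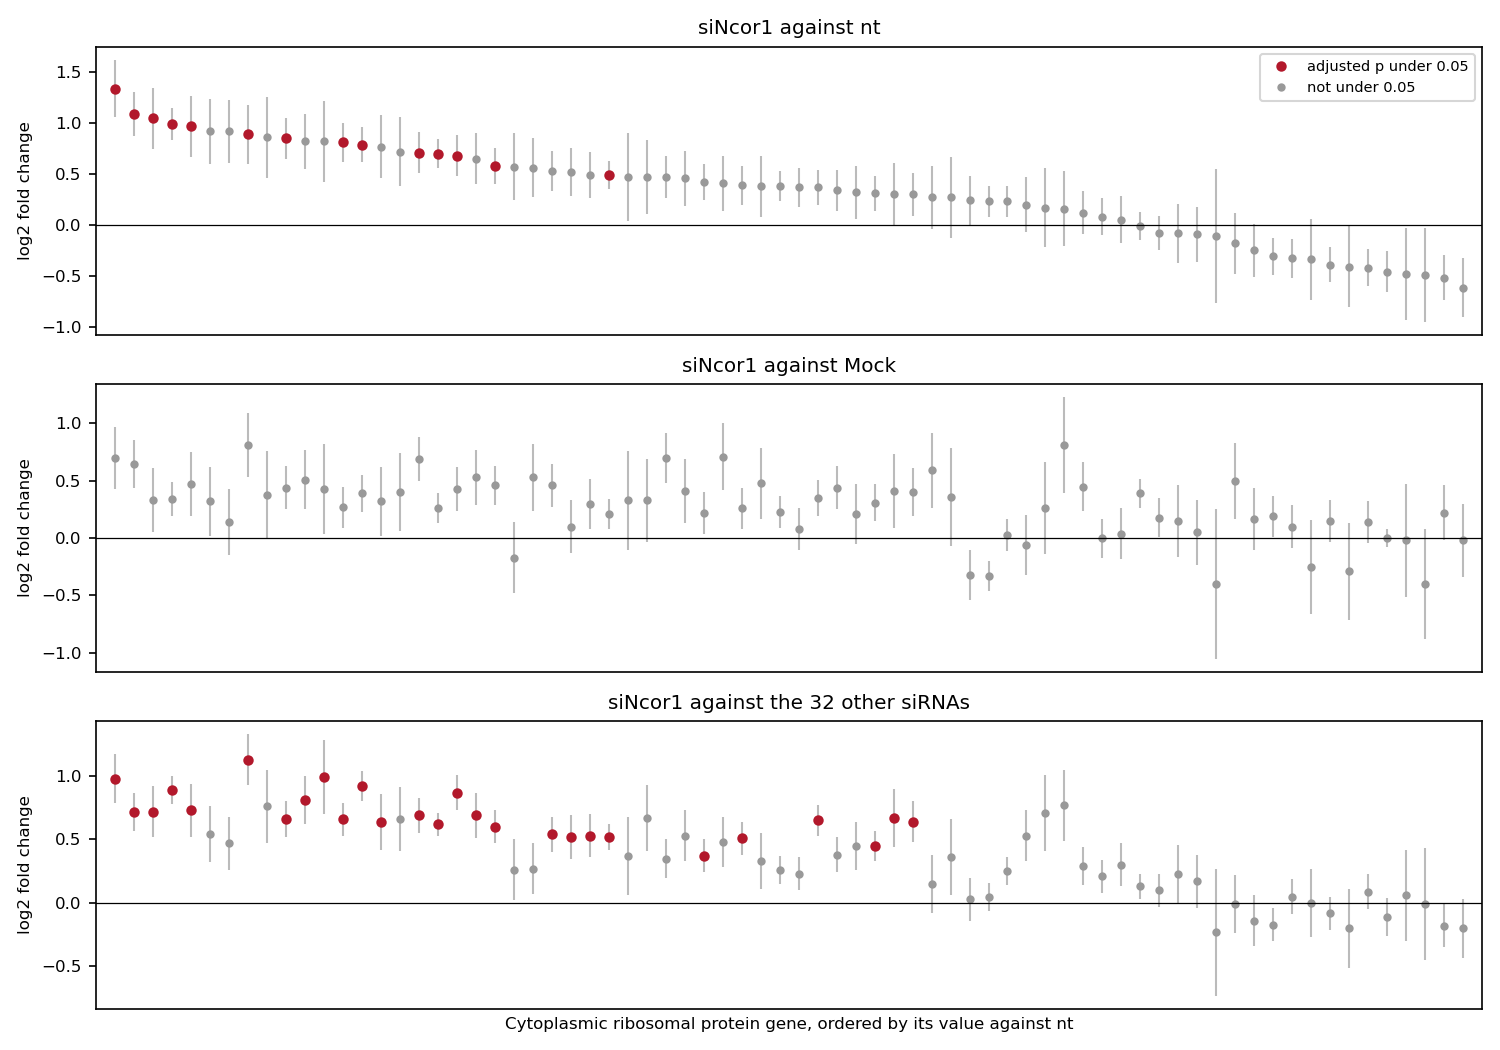
Log2 fold change ± SE of siNcor1 against nt, Mock and the 32 other siRNAs for 72 of the tested cytoplasmic ribosomal protein genes, in 1 order; red points had an adjusted p under 0.05. In red were 14 genes against nt and 27 against the other siRNAs.

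Of 50 nuclear genes of the respiratory chain tested, 3 were higher than nt (6.0%, beside 3.42% of all genes) and 0 lower by edgeR (10 and 0 at an unadjusted p under 0.05; 3 and 0 by DESeq2; 0 and 0 by limma), with a median of 0.37. They were Cox8a, the complex I subunit Ndufb11 and the ATP synthase subunit Atp5j. Ndufb11 read 510, 293 and 350 CPM in siNcor1 and 167, 150 and 123 in nt, without overlap, but its Mock range of 224 to 335 overlapped siNcor1 (log2 fold change 0.52, edgeR adjusted p = 0.457). Against Mock 1 of the 50 was called higher (2.0%, beside 0.398%), and against the other siRNAs 13 were (26.0%, beside 9.62%). Against siPou5f1 0 of the 50 were called, with a median of 0.05, and 1 upwards and 2 downwards at an unadjusted p under 0.05. The summed level of all 77 genes of the list, tested or not, was 16500, 14800 and 20000 CPM in siNcor1 and 14100, 11900 and 14300 in nt. Its siNcor1 mean was the highest of 33 siRNAs. Mock lay between 12300 and 15400 CPM and overlapped siNcor1. Of 15 mitochondrially encoded transcripts tested, mt-Co3 and mt-Atp6 were higher than nt (13.3%, beside 3.42%) and mt-Nd5 was lower (beside 1.03%) by edgeR, and DESeq2 called 4 higher and 1 lower. Their median was 0.24 against nt, with 12 of 15 above 0, and 0.07 against Mock. Against Mock mt-Nd4l was lower (log2 fold change -0.88, edgeR adjusted p = 0.02), beside 0.398% of all genes. mt-Nd5 read 11200, 12400 and 8440 CPM in siNcor1 and 16800, 18000 and 10900 in nt.

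Of 26 heat shock proteins and chaperonins, Hspe1 was higher (3.85%, near the 3.42% of all genes). Hsp90b1 and the chaperonin subunit Tcp1, 2 of the 26, were lower, beside 1.03% of all genes. Of the remaining lists, Mrpl12 and Mrpl42 were higher among 25 mitochondrial ribosomal proteins, Psmb1 among 23 proteasome subunits, Eif3m among 35 translation factors, Rfc4 among 12 replication genes and the histone variant H2afz among 6 histone genes. These are 1 or 2 calls a list, from 2.86% of translation factors and 4.35% of proteasome subunits, near the 3.42% of all genes, to 16.7% of the 6 histone genes, and DESeq2 gave Rfc4 no adjusted p. Pgk1 was lower among 10 glycolysis enzymes, Smc2 among 23 mitosis genes, Idi1 among 10 sterol and fatty acid synthesis genes, the nucleolar protein Ncl among 20 ribosome biogenesis genes, and the nuclear RNA Malat1 among 12 noncoding RNAs and snoRNA hosts, 1 call in each list beside the 1.03% of all genes called lower. H2afz read 3020, 3100 and 3110 CPM in siNcor1 and 2050, 2120 and 2160 in nt, while Mock reached from 2470 to 3310.

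Genes closest to NCOR1 gave no call. Of 7 tested members of the NCoR complex and its HDAC partners, and of 12 nuclear receptor target genes, 0 passed against nt by edgeR, DESeq2 or limma, and 0 had an unadjusted p under 0.05. The median log2 fold change of the receptor targets was -0.55 against nt and -0.34 against Mock. Plin2, a lipid droplet protein, was at 290 CPM in siNcor1 and 395 in nt, a log2 difference of -0.47 that did not pass (edgeR adjusted p = 0.441). Of 33 nuclear receptors 2 were tested, and of 29 pluripotency genes 2, with 0 called by edgeR, DESeq2 or limma and 0 at an unadjusted p under 0.05. The summed level of the nuclear receptors was 245, 251 and 260 CPM in siNcor1 and 500, 344 and 270 in nt, and Mock lay between 240 and 348. That of the pluripotency genes was 326, 272 and 270 CPM in siNcor1 and 683, 449 and 384 in nt, and Mock lay between 313 and 692. Both sums were lower in every siNcor1 library than in every nt library and overlapped Mock, and they were not tested. The epithelial genes Cdh1 and Epcam, which mark colonies, averaged 20.4 and 34.7 CPM in siNcor1 and 20.5 and 35.9 in nt. Both were too low for the test. Krt8 had 3 counts in siNcor1, 10 in nt and 6 in Mock. Its ratio to nt was 0.344 (exact interval 0.0608 to 1.34, counting error only). The summed level of 26 epithelial genes was 143, 314 and 190 CPM in siNcor1 and 266, 284 and 278 in nt. The groups overlapped, Mock lay between 115 and 446 CPM, and this sum was not tested. The 1 tested gene of the list was at -0.37 on the log2 scale against nt and 0.51 against Mock, and neither passed.

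Fibroblast and mesenchymal genes did not pass against nt (0 of 27 by edgeR, DESeq2 and limma, and 0 at an unadjusted p under 0.05). Against the other siRNAs 5 were lower (Col3a1, Fstl1, Sparc, Timp2 and Vim) and the matrix gene Postn was higher by edgeR (3.7%), beside 2.46% of all genes lower and 9.62% higher, with a median of -0.58; DESeq2 called 4 lower and limma 1. Sparc, a matrix protein, was at -0.87 on the log2 scale against the other siRNAs (edgeR adjusted p = 0.000454) and of -0.23 against nt (adjusted p = 0.775). The summed level of all 35 genes of the list, tested or not, was 4890, 3890 and 3470 CPM in siNcor1 and 5180, 4610 and 3960 in nt. Thus siNcor1 was lower within each replicate while the groups overlapped. Mock lay between 5050 and 7120 CPM, above every siNcor1 library. Contractile genes had 5 of 21 lower against the other siRNAs by edgeR, beside the same 2.46%, 2 by DESeq2 and 0 by limma. None passed against nt: 0 were called by edgeR, DESeq2 and limma, where 2 were lower at an unadjusted p under 0.05.

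**Figure D3:**
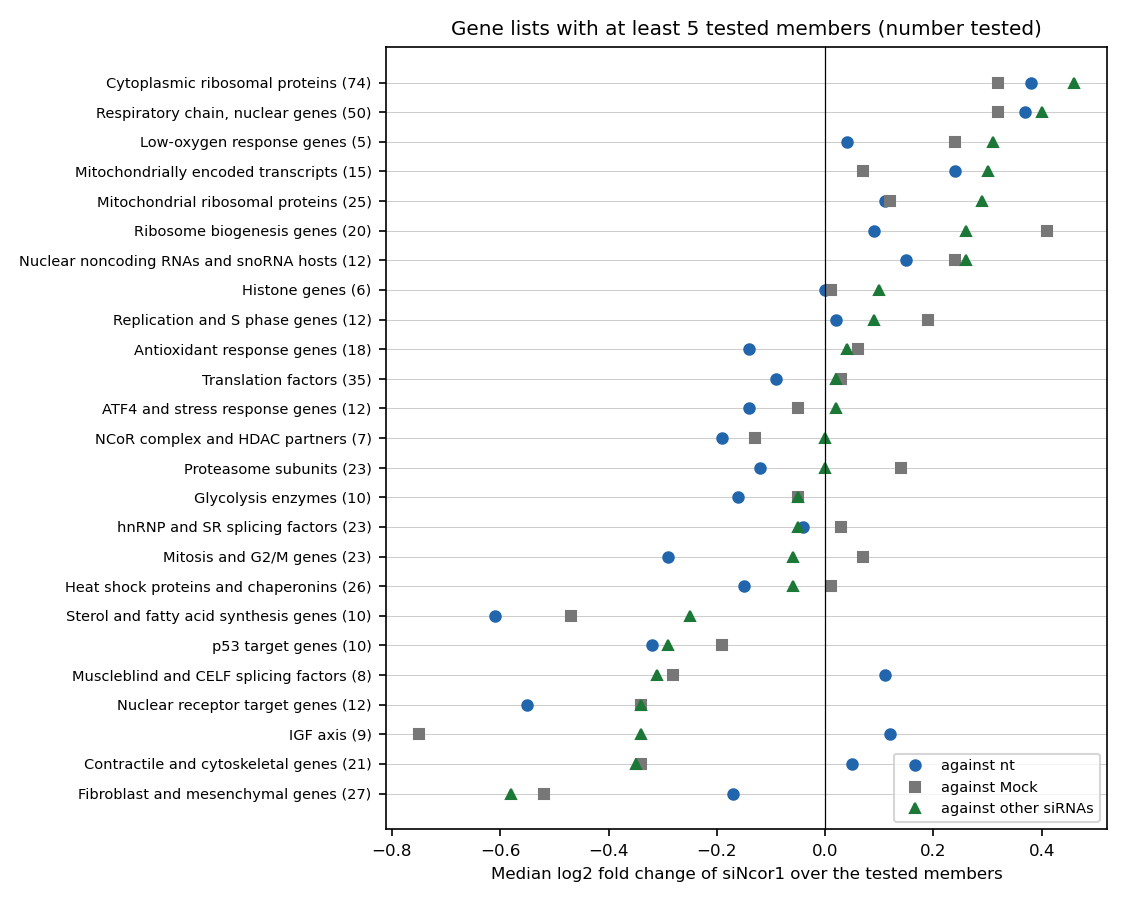
Median log2 fold change of siNcor1 over the tested members of each gene list with at least 5 of them, against nt (circles), Mock (squares) and the other siRNAs (triangles). Ribosomal protein and respiratory chain lists lay right of 0 in all 3 comparisons, and fibroblast genes lay left of 0, at -0.17 against nt and -0.58 against the other siRNAs.

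The called genes shared features that the comparison did not use. Of the 103 higher genes, 50 were pseudogenes (48.5%), 35 of them copies of ribosomal protein genes, whereas 16.0% of genes tested and 2 of the 31 lower genes were pseudogenes. The last 300 bases of the transcript matched another gene at 95% identity or more over at least 100 bases for 66.7% of the higher genes with an annotation, 16.1% of the lower ones and 21.7% of all. Counts of such genes could be split between copies, and their values are uncertain. The higher protein-coding genes were short, with a median transcript of 911.5 bases, against 4350 bases for the lower genes and 3015 for all coding genes tested.

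The length difference ran through all coding genes. The 240 genes with transcripts under 1000 bases had a median log2 fold change of 0.35 against nt, 0.17 against Mock and 0.32 against the other siRNAs. The 396 genes over 6000 bases had medians of -0.27, -0.26 and -0.34. Without the ribosomal protein genes the shortest class was still at 0.32 against nt. The shortest class took 27.3%, 24.3% and 29.4% of coding counts in siNcor1, 22.5%, 20.0% and 24.2% in nt, and 22.3% to 26.3% in Mock. Each siNcor1 library was above the nt library of its replicate, and the groups of siNcor1 and Mock overlapped. Against siPou5f1 the class medians lay between -0.08 and 0.08. The authors state the amount of RNA put into the CEL-Seq2 reactions, but RNA quality and measured input of each library were not among the values. Their part in the result was not tested.

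**Figure D4:**
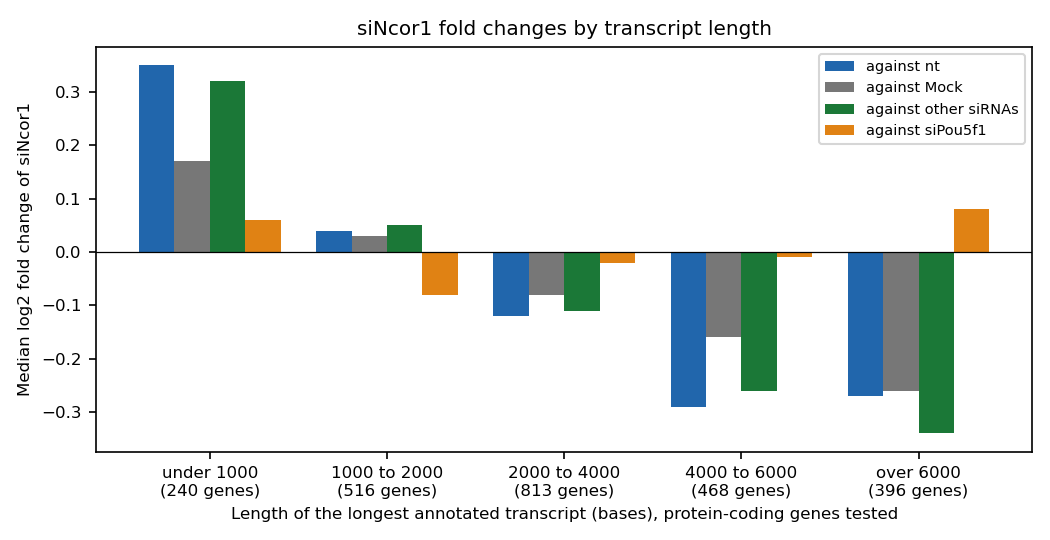
Median log2 fold change of siNcor1 against nt, Mock, the other siRNAs and siPou5f1 for tested protein-coding genes in 5 classes of transcript length; bars start at 0. The bars fell from 0.35 to -0.27 against nt between the shortest and longest class and stayed between -0.08 and 0.08 against siPou5f1.

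Libraries of siNcor1 also held fewer genes at equal depth. Thinned to 29656 counts, the depth of the shallowest library, 5184.2, 5415.7 and 4984.8 genes would be detected in siNcor1, 5586.6, 5742.3 and 5482.8 in nt, and 5336.7 to 5761.4 in Mock. Each siNcor1 library was below the nt library of its replicate, and the siNcor1 mean was the lowest of 33 siRNAs. Ribosomal proteins took 5.14%, 4.82% and 7.12% of counts in siNcor1 and 4.52%, 4.46% and 5.74% in nt, and 4.21% to 5.67% in Mock, so siNcor1 overlapped both. The mean share was 5.69% in siNcor1 and 6.77% in siPou5f1, the highest of 33 siRNAs. The part of these shares in the calls was not tested.

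**Figure D5:**
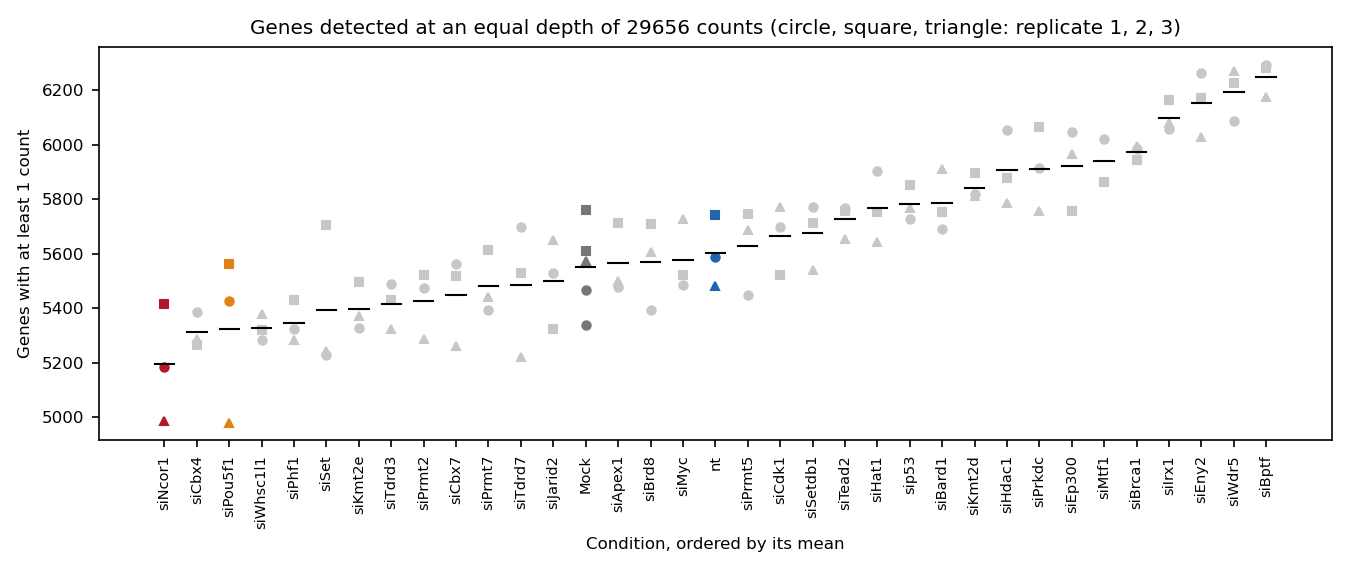
Genes with at least 1 count expected in each library at 29656 counts, for the 33 siRNAs, nt and Mock, ordered by the mean (line). siNcor1 had the lowest mean, 5195 genes, against 5604 in nt and 5550 in Mock.

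Promoter letters were read for the called genes because many encode ribosomal and mitochondrial proteins, whose promoters often carry ETS-type words. The word CCGGAAG, on either strand within 250 bases before the start site in RefSeq promoters of GRCm38.p6, was present in 12 of 33 higher genes with a promoter in the table (36.4%), 3 of the 25 lower ones, 15.4% of genes tested and 7.05% of all promoters. Of 52 ribosomal protein promoters, 30.8% held it. The nuclear receptor half-site AGGTCA was present in 9.09% of the higher genes, 3 of the 25 lower, 9.79% of those tested and 13.8% of all. The other word searched, the YY1 word AAGATGG, was present in 15.2% of the higher genes, 0 of the 25 lower, 4.16% of those tested and 4.53% of all. The windows of the 4 higher coding genes with the smallest p and the ETS word are shown with the word in capitals.
Rps7, chr12:28635954-28635997, minus strand: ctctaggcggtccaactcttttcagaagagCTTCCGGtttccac
Eif3m, chr2:105017046-105017112, minus strand: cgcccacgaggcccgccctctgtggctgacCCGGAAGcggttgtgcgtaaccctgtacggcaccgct
Snrpb2, chr2:143063011-143063068, plus strand: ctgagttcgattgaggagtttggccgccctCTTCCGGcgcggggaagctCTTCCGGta
Rplp2, chr7:141447513-141447579, plus strand: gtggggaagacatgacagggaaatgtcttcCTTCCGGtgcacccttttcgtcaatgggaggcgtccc
Eif3m, a subunit of the translation initiation factor eIF3, read 571, 356 and 631 CPM in siNcor1 and 167, 224 and 172 in nt, and its Mock range of 199 to 343 also lay below siNcor1 (log2 fold change against nt 1.53, edgeR adjusted p = 8.98e-05). In siPou5f1 Eif3m averaged 493 CPM, a log2 difference of 0.02 from siNcor1. Snrpb2, a protein of the U2 spliceosome particle, read 550, 607 and 611 CPM in siNcor1 and 233, 209 and 253 in nt, with Mock from 372 to 464.

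Seed matches of the siRNAs, the letters through which an siRNA can act on other transcripts, were counted in annotated 3′ UTRs for the 2 siRNAs shown, and the remaining siRNA of the pool was not analysed here. The match to the first seed, CAGAAAA, was in 16.0% of 25 lower genes with such a UTR, 12.5% of 48 higher genes and 23.1% of 2403 tested. The match to the second, GTAAGTT, was in 3 of the 25, 8.33% of the higher and 10.6% of those tested. The median UTR was 2442 bases in the lower genes and 233 in the higher ones.

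Position along reprogramming was read from the untransfected time course, whose libraries are on neither side of the siNcor1 comparisons but share the model's estimate of spread and its replicate terms. Between Day00 and Day06, 321 genes rose (10.7%) and 347 fell (11.5%). With RLE size factors in place of TMM the split was 229 and 431, and the median log2 change of all genes moved from 0.05 to -0.11. Of the 103 genes higher than nt in siNcor1, 42 were among those that rose (40.8% of the 103 and 13.1% of the 321). Of the 31 lower genes, 6 were among those that fell and 4 among those that rose. The 347 genes that fell had a median siNcor1 log2 fold change of -0.21 against nt, -0.27 against Mock and -0.34 against the other siRNAs, and the 321 that rose had medians of 0.09, 0.18 and 0.21. Of the 74 ribosomal protein genes, 27 rose over the time course and 0 fell by edgeR, where 36 rose and 0 fell at an unadjusted p under 0.05.

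The siRNA siPou5f1 targets a reprogramming factor and was compared directly. Against it 10 genes were higher in siNcor1 (0.332%) and 0 were lower by edgeR (0%), where 126 were lower at an unadjusted p under 0.05, 11 by DESeq2 and 1 by limma. The ferritin light chain gene Ftl1 averaged 846 ± 83.2 CPM (SD, n = 3) in siNcor1 and 368 ± 134 in siPou5f1, with a log2 difference of 1.16 (edgeR adjusted p = 0.00141). Hmga2, a chromatin protein of embryonic cells, averaged 742 ± 335 and 313 ± 229 CPM, with a difference of 1.30 (adjusted p = 0.00492). The others were the mitochondrial transcripts mt-Rnr1, mt-Rnr2 and mt-Nd5 and 5 pseudogenes or unannotated symbols. Few calls with 3 libraries on each side do not show that both knockdowns were alike.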

How the data were processed

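The authors state that CEL-Seq2 reads were mapped with Bowtie2 to mm10, that molecular barcodes were corrected and that GENCODE vM13 genes were counted. The deposited counts are unnormalized UMI counts per gene. The deposited log2 values are log2 CPM that the authors scaled and from which they regressed the batch; they were used only as an alternative. Column names gave the condition. Counts were tested with edgeR 4.0.16 in R 4.3.3 (quasi-likelihood test, TMM, filterByExpr, condition and replicate terms, Benjamini-Hochberg, threshold 0.05) over 127 libraries of 29656 to 235292 counts; 2 libraries with at most 7981 counts were left out. Same-numbered siNcor1 and nt libraries deviated together (r 0.127, 0.154 and 0.323), and the pool number stayed in the model as the replicate block. Alternatives used DESeq2 1.42.0 and limma 3.58.1. Scripts were tested on simulated data. Genes were annotated with GENCODE vM21 (2965 of 3013 matched) and BLAST+ 2.17.0. Named genes were Ncor1, the 12 widest changes against nt in each direction at 50 CPM or more with 1 sign in every replicate, up to 15 called in all 3 comparisons, called list members, and up to 4 abundant members per list; other genes were chosen after their values were seen. Members and lists were chosen with earlier results of these data known. Intervals cover counting error only. Some genes that passed the rule are not reported here.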

Additional observations from a re-analysis of the deposited data

Results flagged for a closer look

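In 5 of 66 named genes, 1 of the 5 Mock libraries stood apart from the other 4. Chance flags about 1 in 20 such groups if the 5 libraries are alike. That rate ignores the replicate, and only 1 Mock library of replicate 3 was used. E030024N20Rik read 179 CPM in the Mock library of replicate 3 and 0 to 51.6 in the others. Idi1 read 284 CPM in that library and 34.3 to 86.5 in the others, and mt-Nd5 read 9150 against 13300 to 14800. In siNcor1 and in nt, mt-Nd5 was also lowest in replicate 3. Gm4707 read 223 CPM in a Mock library of replicate 2 against 51.6 to 74.6, and Pnn read 343 CPM in a Mock library of replicate 1 against 129 to 173.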

How the results depend on the processing

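The number of genes called in siNcor1 depended on the fit. Directions were followed for 65 called and named genes and Ncor1, and none of those reversed under the alternatives run. The 65 were chosen on their calls in these same libraries, so their kept directions are a description and no independent check. Repeats in which DESeq2 gave no adjusted p were not checked for direction. Without the replicate block, calls fell from 134 to 30 against nt, from 24 to 0 against Mock, from 98 to 19 against nt and Mock, from 364 to 192 against the other siRNAs and from 10 to 2 against siPou5f1. With limma on the deposited log2 values they were 0, 6, 4 and 30 in the first 4 comparisons. With the low-count filter replaced by a summed count of at least 10, which tests more genes, they were 50 against nt and 54 against nt and Mock. DESeq2 gave 41 against Mock and 33 against siPou5f1. Including the shallow libraries gave 62 against Mock, and the compared conditions alone gave 0 against siPou5f1, where 53 had an unadjusted p under 0.05. The causes of these differences were not tested. Leaving out 1 replicate or library gave 36 to 157 genes against nt, 0 to 25 against Mock, 17 to 89 against nt and Mock, 113 to 311 against the other siRNAs, 2 to 16 against siPou5f1 and 343 to 564 for Day06 against Day00. The low ends against nt, Mock, both controls, the other siRNAs and the time course were without replicate 3, and 63 genes were called against nt without replicate 2. The log2 fold change of Ncor1 ran from -0.90 to -0.08 and never passed. Of 1057 repeats of the calls of those 65 genes, 648 held and 409 no longer passed, leaving out 10 genes to which DESeq2 gave no adjusted p. Genes that a fit did not test were also left out there. With the compared conditions alone 46 of the 65 were followed, and without replicate 3 57 were. Without siWdr5, siBrca1 and siBard1, a choice made after seeing the data, 303 genes were called against the other siRNAs. Low counts, 38925 to 143156 in the 11 libraries, limit the genes that can be tested.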
